A study of Mus musculus with 3 samples.

Results

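The regions described here are stretches of intergenic chromatin that carried histone H3 trimethylated on lysine 4 (H3K4me3) in ovarian granulosa cells of mice at each of 3 times around an ovulatory stimulus. The H3K4me3 peaks of the 3 libraries were pooled over the autosomes and chromosome X, and peaks within 1 kb of each other were merged into domains. A domain was kept when it held a peak before hCG (0 h), at 4 h and at 12 h, spanned less than 3000 bp and lay more than 1 kb outside every protein-coding gene. Of 14778 domains in all, 906 met the rule (6.13%). They are called constant intergenic domains below. The members were chosen by the presence of a peak in each library, by merged span and by distance to genes, so "constant" refers to presence alone and is no finding. Wild-type C57BL/6 females of postnatal day 21 to 28 received 4 IU of eCG, a gonadotropin that makes follicles grow, in every group, and 5 IU of hCG, which acts like the LH surge, in the 4 h and 12 h groups. Granulosa cells, the somatic cells that surround the oocyte and become luteal cells after ovulation, were taken by puncturing follicles. Each time was represented by 1 library, and the labels do not state the number of mice behind a library. The values below are covered bp, that is the number of base pairs of a domain that lie inside called peaks in 1 library, with no height or read count behind them. A difference between times has no replicate check, no test was possible, and fewer marked cells and less of the mark per cell cannot be told apart.

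H3K4me3 sits on the nucleosomes next to active or poised transcription starts, those of protein-coding genes and of non-coding genes alike. Intergenic sites with the mark are therefore often the starts of long non-coding RNAs (lncRNAs), of primary microRNA transcripts, of host genes whose introns release small nucleolar RNAs (snoRNAs), or the surroundings of tRNA genes, which RNA polymerase III transcribes. In the libraries, 7 of 13 granulosa markers had a peak within 1 kb of a gene end at each time, among them Foxl2, Fshr, Amhr2, Esr2, Fst and Hsd17b1, while Cyp19a1, Amh, Inhba, Nr5a2 and Gata4 had none at any time. None of 4 theca and stroma markers and none of 4 leukocyte markers had a peak, the endothelial gene Kdr had one at 4 h and 12 h as 1 of 4 markers, and the oocyte gene Gdf9 had one at all times as 1 of 4. What part other cells have in the domains below was not tested. On the autosomes and X there were 22208, 23619 and 20644 peaks at 0 h, 4 h and 12 h, of which the members held 1407, 1465 and 1354, and the narrowest peaks had 136, 139 and 152 bp. The 12 h library ran in another lane than the other libraries and its peak names lack a tag that theirs carry, so lane, tag and time cannot be told apart.

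MicroRNA genes lay within 1 kb of 15 of the 906 domains (1.66%), against 7 of the 1352 intergenic domains that lacked a peak at 1 or more times (0.518%). The members had the longer merged span, a median of 801 bp against 223 bp. The 15 domains held 19 of the 1228 annotated microRNA genes on the chromosomes used, and 17 of the 19 had a listed hairpin. In 9 cases the domain lay upstream of the hairpin on its strand, in 7 it overlapped the hairpin, and in 1 it lay downstream. The mature sequences of 9 of them are shown because the covered bp of their domains are given next. They are from RefSeq (GRCm38.p6, the mm10 build), written 5′ to 3′ with the seed, bases 2 to 8, in capitals.
mmu-miR-322-5p: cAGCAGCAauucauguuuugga
mmu-miR-503-5p: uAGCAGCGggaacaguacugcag
mmu-miR-22-3p: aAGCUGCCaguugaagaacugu
mmu-let-7i-5p: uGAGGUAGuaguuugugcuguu
mmu-miR-17-5p: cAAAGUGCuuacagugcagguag
mmu-miR-18a-5p: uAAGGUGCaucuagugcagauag
mmu-miR-193b-3p: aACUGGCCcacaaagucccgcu
mmu-miR-203-3p: gUGAAAUGuuuaggaccacuag
mmu-miR-9-5p: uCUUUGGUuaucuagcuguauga
No seed was shared by a pair of the listed mature microRNAs at these domains. The seeds AGCAGCA of miR-322-5p and AGCAGCG of miR-503-5p belong to genes at the same domain and are alike without being identical.

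Among these 15 domains, the one upstream of Mir322 and Mir503 had the lowest 12 h breadth relative to 0 h. It lay at chrX:53054560-53056878, over the annotated lncRNA gene C430049B03Rik, 210 bp upstream of the Mir322 hairpin and 505 bp upstream of Mir503. It was covered over 1257 bp in 4 peaks at 0 h, 396 bp in 2 peaks at 4 h and 210 bp in 1 peak at 12 h. The covered length was thus lower at each later time, with a log2 ratio of -1.67 for 4 h over 0 h and -2.58 for 12 h over 0 h. The 12 h peak was within the lower quartile of peak widths at 12 h, 211 bp. The size of the latter ratio thus depends on how narrow a peak could be called. Both microRNAs are known for restraining genes of the cell cycle. The nearest protein-coding gene was Plac1, a placenta-enriched gene 13114 bp away.

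Other microRNA domains were broad at every time. The domain of Mirlet7i, a member of the let-7 family of growth-restraining microRNAs, lay at chr10:122984262-122986775 and was covered over 1256, 1556 and 1384 bp at 0 h, 4 h and 12 h. The domain of Mir22hg, the host gene of Mir22, lay at chr11:75460758-75463357, 358 bp upstream of the hairpin, with 1582, 1281 and 1156 bp. The domain upstream of Mir17 and Mir18, the leading members of a cluster known for promoting proliferation, lay at chr14:115040992-115042945 with 770, 1223 and 1085 bp, 725 and 905 bp from the hairpins. At Mir760 (chr3:122292201-122294019), which shares its domain with an arginine tRNA gene, the values were 1404, 1482 and 1223 bp. None of these 4 domains differed by 2-fold between any times.

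At Mir193b and Mir203 the domain was narrower at 12 h than at 4 h. The Mir193b domain (chr16:13446796-13448760) holds the listed starts of the lncRNA genes Gm32817 and Gm53058 and was covered over 816, 1030 and 500 bp at 0 h, 4 h and 12 h, a log2 ratio of -1.04 for 12 h over 4 h. The Mir203 domain (chr12:112129954-112130677) lay 202 bp upstream of the hairpin of this keratinocyte microRNA and had 450, 697 and 321 bp, a log2 ratio of -1.12. At Mir9-2, a neural microRNA gene, the covered length was near the narrowest peak of each library, with 136, 165 and 158 bp. The remaining microRNA domains were those of Mir5103 (381, 381 and 613 bp), Mir7671 (549, 587 and 640 bp), Mir6516 (722, 657 and 836 bp), Mir713 (338, 545 and 329 bp), Mir692-3 (471, 569 and 483 bp), Mir682 (136, 213 and 196 bp) and Mir1949 (301, 569 and 388 bp). In 10 of the 15 domains (66.7%) the covered length was highest at 4 h, as it was in 40.3% of all 906 members.

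**Figure D1:**
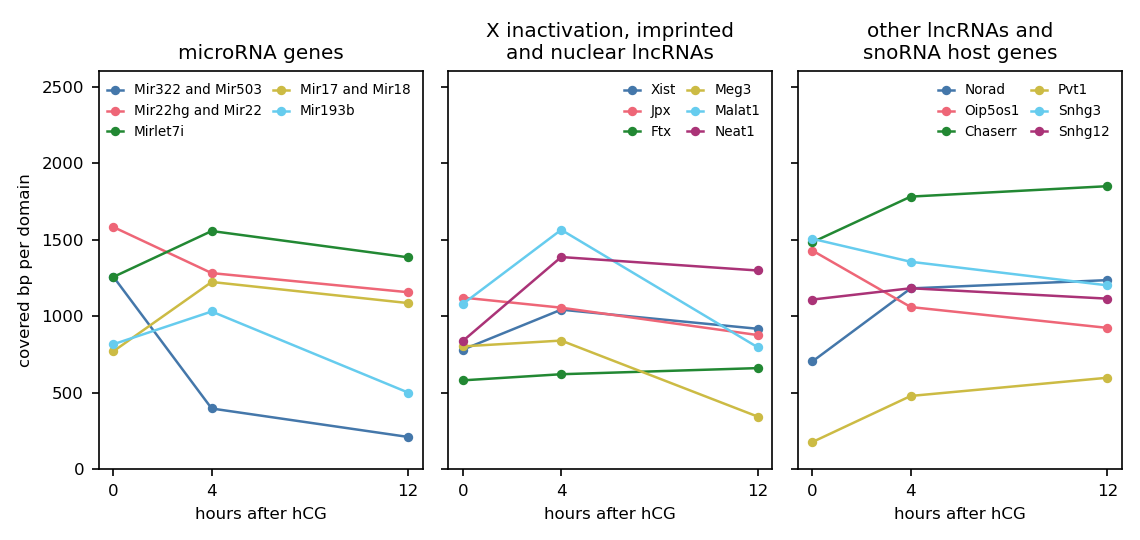
Covered bp of the domain at 0, 4 and 12 h after hCG (x axis) for microRNA genes (left), X inactivation, imprinted and nuclear lncRNAs (middle) and other lncRNAs and snoRNA host genes (right), with 1 library per time and lines joining the values of a domain. The domain of Mir322 and Mir503 had 1257, 396 and 210 bp, while that of Snhg12 had 1108, 1182 and 1114 bp.

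An annotated lncRNA gene lay within 1 kb of 325 of the 906 domains (35.9%, 95% Clopper-Pearson interval 32.7 to 39.1, counting error only), against 357 of the 1352 intergenic domains that lacked a peak at 1 or more times (26.4%, 24.1 to 28.8). The median merged span was 801 bp in the members and 223 bp in these other domains. Its part in the difference was not tested. Well-studied lncRNAs were among the genes at members. On chromosome X, the domain of Xist, the RNA that coats the inactive X, lay at chrX:103481817-103482969, also inside the antisense gene Tsix. It was covered over 781, 1042 and 917 bp at 0 h, 4 h and 12 h. The domain of Jpx, an activator of Xist, had 1121, 1055 and 876 bp (chrX:103492862-103494698), and that of Ftx, a further RNA of the X inactivation centre, had 580, 620 and 660 bp (chrX:103616123-103617690). These 3 neighbouring domains each stayed within 1.5-fold over the times.

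The nuclear RNAs Malat1 and Neat1, neighbours on chromosome 19, had their highest value at 4 h. Malat1, a component of nuclear speckles, was covered over 1080, 1564 and 796 bp at 0 h, 4 h and 12 h (chr19:5800097-5802435). Neat1, the scaffold of paraspeckles, whose loss impairs corpus luteum formation in mice, was covered over 838, 1386 and 1298 bp (chr19:5843501-5845418). At 12 h the Neat1 domain thus kept most of its 4 h breadth and the Malat1 domain was below its 0 h value. The imprinted, maternally expressed Meg3 had 802, 840 and 343 bp (chr12:109541066-109542020) and was 2.45 times as broad at its broadest as at its narrowest time.

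Several other lncRNA domains were broader after hCG. Norad, which binds Pumilio proteins, had 704, 1181 and 1235 bp at 0 h, 4 h and 12 h. Pvt1, the lncRNA neighbour of the growth regulator Myc, had 177, 478 and 597 bp, and its domain lay 47.7 kb from Myc. In the Pvt1 domain 1.7% of the covered bp were covered in all 3 libraries. Chaserr, which restrains its neighbour Chd2 in mice, had 1483, 1781 and 1849 bp (chr7:73555808-73557965, 14061 bp from Chd2). In the other direction, Oip5os1, known as Cyrano, which directs the decay of a microRNA, had 1428, 1059 and 923 bp. Dleu2, a host gene of microRNAs, held a pair of domains, with 945, 1419 and 1086 bp in that at chr14:61646812-61648726 and 733, 736 and 951 bp in that at chr14:61681603-61683204, which holds its listed start. The member with the most covered bp in its narrowest library was the lncRNA gene 2700054A10Rik (chr17:13550682-13553167), with 1987, 2279 and 2300 bp.

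An annotated snoRNA gene, whose product guides the modification of ribosomal RNA, lay within 1 kb of 15 members (1.66%). Among the 1352 shorter intergenic domains lacking a time, 5 had one (0.370%). The 15 members had median covered lengths of 981, 1182 and 1041 bp at 0 h, 4 h and 12 h. In 11 of the 15 the broadest time was at most 1.5 times the narrowest, with up to 2.98 times in the others. Domains at genes named Snhg, for small nucleolar RNA host gene, numbered 9, and in 8 of them the broadest time was at most 1.5 times the narrowest, against 427 of all 906 members (47.1%). These 8 had 657 bp or more in each library, while all members had medians of 409, 491 and 428 bp. A comparison with members of like breadth was not made. Snhg12 was covered over 1108, 1182 and 1114 bp at 0 h, 4 h and 12 h, and 90.3% of its covered bp were covered in all libraries. Snhg3 had 1505, 1355 and 1201 bp and Snhg15 had 1362, 1479 and 1296 bp. Snhg5 was broader at each later time, with 1261, 1478 and 1684 bp. The exception was Snhg4, with 301, 569 and 388 bp. Snhg7 had 897, 982 and 1055 bp, Snhg16 had 811, 1105 and 1041 bp, Snhg17 had 981, 1262 and 960 bp and Snhg20 had 722, 657 and 836 bp. These genes carry the name by a rule on the symbol that was chosen after the values were seen and so were Dancr, Terc, Scarna2 and Rny1 below.

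Other small and structural RNA genes also lay at constant domains. Dancr, the host of Snora26, had 1041, 1745 and 1129 bp at 0 h, 4 h and 12 h, 1.68 times as broad at 4 h as at 0 h. Rn7sk, an RNA that holds back the elongation kinase of RNA polymerase II, had 880, 797 and 633 bp. Terc, the RNA template of telomerase, had 333, 483 and 502 bp. Scarna2, a guide RNA of Cajal bodies, had 682, 823 and 588 bp. Rny1, a Y RNA, had 386, 495 and 167 bp, so its 12 h value was the lowest.

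Transfer RNA genes lay within 1 kb of 57 of the 906 domains (6.29%, interval 4.80 to 8.07), against 13 of the 1352 intergenic domains lacking a time (0.962%, interval 0.513 to 1.64). Here too the members had the longer merged span, a median of 801 bp against 223 bp. The 57 domains served 106 tRNA genes, 27 of them had 2 or more, and 1 had 5. Of 408 tRNA genes on the chromosomes used, 332 lay more than 1 kb from protein-coding genes, and of these 114 had a peak within 1 kb at all times and 201 at no time. The domain at chr13:21159108-21161286, between the olfactory receptor gene Olfr1368 and Trim27, held a glutamate and a phenylalanine tRNA gene (n-TEctc11 and n-TFgaa4) and was covered over 1563, 1925 and 1595 bp at 0 h, 4 h and 12 h. The domain at chr14:51063600-51065710 held a leucine, a proline and a threonine tRNA gene, with 1424, 1344 and 1598 bp. The domain at chr2:122375107-122377971 held 3 histidine tRNA genes, n-THgtg3, n-THgtg4 and n-THgtg5, with 1507, 1424 and 1283 bp. A run of 4 members, each within 20 kb of the next and all at tRNA genes, lay at chr13:23430172-23453977 near Abt1 and Btn1a1. Their covered lengths were 530, 965 and 758 bp, 701, 966 and 635 bp, 676, 1181 and 510 bp, and 218, 342 and 243 bp, with the highest value at 4 h in each. Chromosome 13 held 71 members, the most of any chromosome, which were 14.7% of its domains marked at all times. Over all chromosomes used the members were 906 of 10822 such domains. On the other chromosomes the share ran from 4.98% (chromosome 8) to 11.1% (chromosome 16).

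At tRNA genes the peaks mostly lay beside the gene and not on it. The 106 genes were picked for lying within 1 kb of a member. The height of the coverage beside them and its fall farther out therefore follow from the choice. They share 57 domains, so neighbouring genes can count the same peak. The base at the gene's centre was covered in 8.49%, 9.43% and 8.49% of the 106 genes at 0 h, 4 h and 12 h. Coverage was highest at 240, 270 and 240 bp before the centre in chromosome order, with 57.5%, 55.7% and 50% of genes, and at 200, 230 and 300 bp after it, with 49.1%, 50.9% and 42.5%. A peak overlapped the gene itself in 19, 16 and 14 of the 106 genes. The dip at the centre was present in each library.

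At lncRNA genes the coverage was uneven, higher into the gene than before its start. The members held the listed starts of 99 lncRNA genes in 93 domains. These starts were picked for lying inside a domain, and for each gene the listed start nearest to the domain's middle was used. The height of their coverage and its fall with distance on both sides therefore follow from the choice. Which side of the start had more coverage was not part of the choice. The start itself was covered in 37.4%, 43.4% and 39.4% of the 99 genes at 0 h, 4 h and 12 h. Into the gene, coverage was highest at 150, 100 and 150 bp, with 69.7%, 68.7% and 75.8%, and before the start its highest values were 39.4%, 43.4% and 36.4%.

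**Figure D2:**
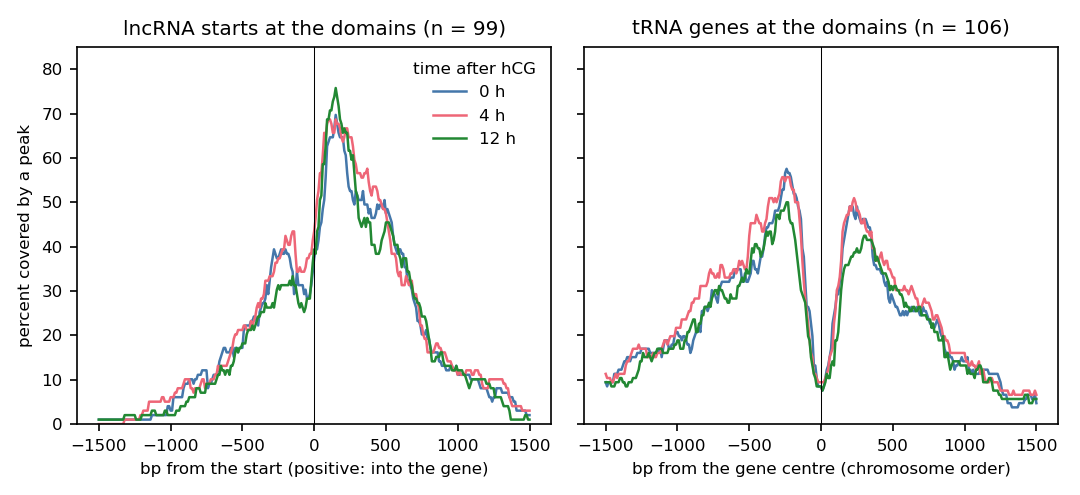
Percent of lncRNA starts (left, 99 genes) and of tRNA genes (right, 106 genes) at constant intergenic domains whose base at a given distance (x axis, bp) was covered by a peak in each library. Coverage was highest 100 to 150 bp into lncRNA genes, and at tRNA genes it dipped to 8.49% to 9.43% at the gene's centre.

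The sequence at these starts was measured in windows from 250 bp before to 50 bp after the listed start, 300 bases in all. CpG content is given as the number of CpG pairs observed over the number expected from the C and G content. Its median was 0.664 at the 99 starts in constant intergenic domains, 0.388 at 34 lncRNA starts in intergenic domains lacking a time, 0.853 at 4238 protein-coding starts in constant domains at gene ends and 0.201 at 5650 lncRNA starts with no peak within 1 kb. The GC share had medians of 57.3%, 50.8%, 63.7% and 46.7% in the same order. A value over 0.6, a usual limit for CpG islands, was found at 54 of the 99 starts (54.5%), 7 of the 34 (20.6%), 87.6% of the protein-coding starts and 3.81% of lncRNA starts without a peak. The 54 starts over 0.6 lay in domains with median covered lengths of 695, 748.5 and 679.5 bp at 0 h, 4 h and 12 h, and the other 45 in domains with 527, 585 and 463 bp. CpG content over 0.6 thus went with longer coverage at each time, as a description over starts that share libraries.

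**Figure D3:**
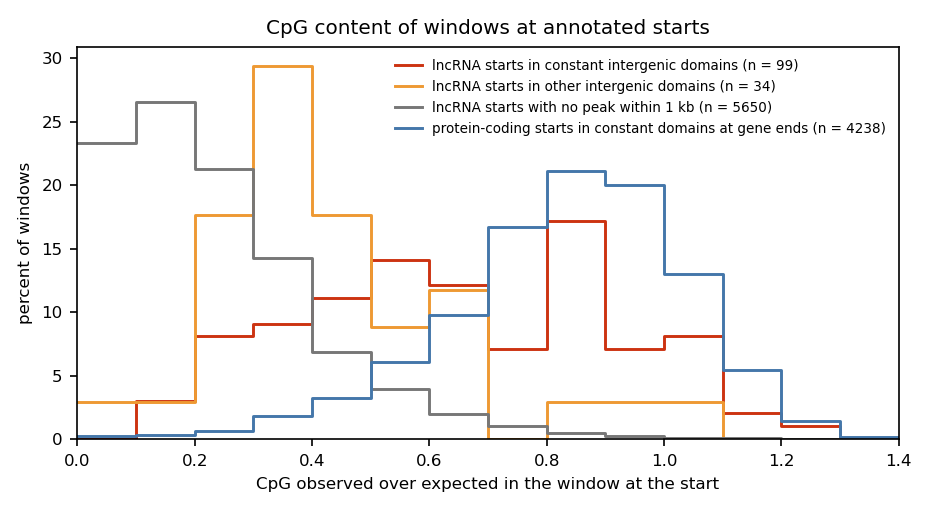
Share of 300-base windows at annotated starts (y axis, percent) by CpG observed over expected (x axis, bins of 0.1), for lncRNA starts in constant intergenic domains, lncRNA starts in other intergenic domains, lncRNA starts with no peak within 1 kb and protein-coding starts in constant domains at gene ends. The first class spreads between the others, with a median of 0.664.

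Windows of 4 lncRNA starts inside constant intergenic domains are shown as examples of the sequence at such starts. Most of each window lies before the start, where coverage was lower than inside the gene. The windows of Snhg20 and Gm40237 also begin before their domains. Of the 4 windows, 3 are at genes described above and 1 is at the member whose extent was most alike in the 3 libraries. They are from RefSeq (GRCm38.p6), read 5′ to 3′ on the gene's strand, which is the plus strand for each, and span chr11:75461289-75461588 for Mir22hg, chrX:103493308-103493607 for Jpx, chr11:117076533-117076832 for Snhg20 and chr4:118547156-118547455 for Gm40237. Capitals mark matches to the TATA motif TATAAA, the NF-Y motif CCAAT, the GC box GGGCGG, the cyclic AMP response element TGACGTCA, the AP-1 motif TGANTCA and the nuclear receptor motif AAGGTCA on either strand, where adjoining or overlapping matches form 1 run.
Mir22hg: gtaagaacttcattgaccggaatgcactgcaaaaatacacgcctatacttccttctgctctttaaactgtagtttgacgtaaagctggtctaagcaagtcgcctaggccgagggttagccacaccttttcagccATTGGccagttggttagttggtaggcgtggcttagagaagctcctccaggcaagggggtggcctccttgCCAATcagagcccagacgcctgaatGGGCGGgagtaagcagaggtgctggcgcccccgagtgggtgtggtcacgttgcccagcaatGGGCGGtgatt
Jpx: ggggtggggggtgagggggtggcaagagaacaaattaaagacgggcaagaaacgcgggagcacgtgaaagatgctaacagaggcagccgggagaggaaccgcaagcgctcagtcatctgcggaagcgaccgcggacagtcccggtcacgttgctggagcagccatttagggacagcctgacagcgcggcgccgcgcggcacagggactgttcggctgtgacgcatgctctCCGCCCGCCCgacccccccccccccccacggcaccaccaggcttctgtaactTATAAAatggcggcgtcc
Snhg20: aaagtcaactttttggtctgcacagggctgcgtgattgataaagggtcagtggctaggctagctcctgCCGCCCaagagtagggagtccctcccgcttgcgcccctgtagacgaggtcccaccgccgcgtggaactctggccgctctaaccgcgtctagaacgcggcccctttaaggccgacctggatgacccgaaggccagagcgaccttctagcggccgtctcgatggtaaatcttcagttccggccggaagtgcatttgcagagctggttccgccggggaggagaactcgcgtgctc
Gm40237: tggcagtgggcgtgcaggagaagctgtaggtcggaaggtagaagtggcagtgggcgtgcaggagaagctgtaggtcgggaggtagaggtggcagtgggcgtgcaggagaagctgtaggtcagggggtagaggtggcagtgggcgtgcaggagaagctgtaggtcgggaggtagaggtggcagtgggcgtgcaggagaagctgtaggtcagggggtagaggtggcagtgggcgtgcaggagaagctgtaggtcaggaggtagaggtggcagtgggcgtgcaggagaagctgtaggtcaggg
The Mir22hg window holds CCAAT and GGGCGG, the Jpx window TATAAA and GGGCGG and the Snhg20 window GGGCGG. The Gm40237 window holds none of the motifs. It is a tandem repeat, in which 97.6% of bases equal the base 88 positions on and 96.1% the base 44 positions on. Over the 99 windows the median of the best such identity was 34.6%, and this window was the 1 over 80%.

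The motif GGGCGG, the GC box that SP-family factors recognise, was in 47.5% of the 99 windows, 26.5% of the 34 lncRNA windows in intergenic domains lacking a time, 7.59% of the lncRNA windows without a peak, 70.0% of the protein-coding windows and 36.2% of the windows of all 26794 genes listed. TATAAA was in 15.2%, 14.7%, 18.1%, 4.74% and 14.2% in the same order, and CCAAT in 28.3%, 20.6%, 37.5%, 36.6% and 38.1%. The full cyclic AMP response element TGACGTCA was in 4.04%, 2.94%, 0.708%, 4.01% and 1.89%, where the share in the members stands for 4 windows in 3 domains and that in the other intergenic domains for 1 window. The AP-1 motif TGANTCA was in 6.06%, 2.94%, 10.9%, 2.97% and 7.98%, and AAGGTCA, a site of NR5A and related nuclear receptors, in 5.05%, 5.88%, 6.23%, 2.31% and 4.65%. A match describes the letters in the window and is not evidence of binding.

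Across all 906 members the median covered length was 409, 491 and 428 bp at 0 h, 4 h and 12 h, with quartiles of 243 and 677, 288 and 767, and 264 and 701 bp. Constant domains under 3000 bp at gene ends had medians of 800, 872 and 790 bp (8366 domains), and those inside genes had 647, 716.5 and 639.5 bp (1414 domains). Members at tRNA genes had medians of 682, 767 and 623 bp (55 domains), and members at snoRNA, snRNA and other small RNA genes 770.5, 798.5 and 622 bp (30). Members at microRNA genes had 549, 587 and 500 bp (15) and those at lncRNA genes with no small RNA gene 470, 541 and 463 bp (277). Members at pseudogenes and other annotated genes had 344, 435.5 and 412.5 bp (102), close to the 343, 434 and 368 bp of the 427 members with no annotated non-coding gene within 1 kb. In these exclusive classes a domain counted under the earliest that applied in the order microRNA, tRNA, other small, lncRNA, pseudogene. In all, 479 members (52.9%, interval 49.6 to 56.2) had an annotated non-coding gene within 1 kb, against 517 of the 1352 intergenic domains lacking a time (38.2%, interval 35.6 to 40.9). The members had the longer merged span, a median of 801 bp against 223 bp, and the part of span in this difference was not tested.

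**Figure D4:**
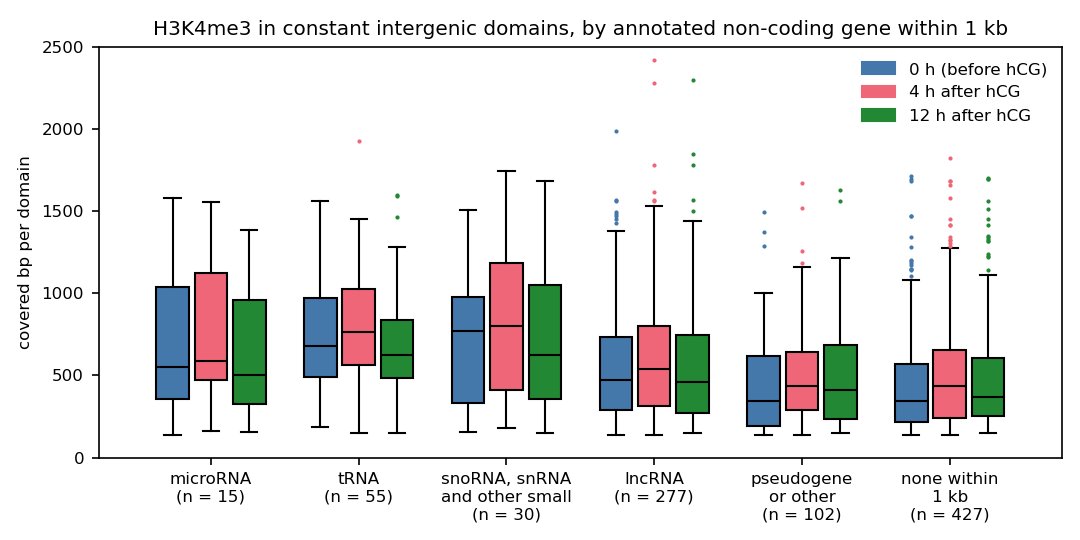
Covered bp per constant intergenic domain (y axis) at 0 h, 4 h and 12 h, by class of the annotated non-coding gene within 1 kb. Boxes give quartiles with the median line, whiskers reach 1.5 interquartile ranges and dots are domains beyond them, and the medians at 0 h run between 343 bp with no such gene and 770.5 bp at small RNA genes.

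Presence at all times did not mean equal breadth. The broadest time was at most 1.5 times the narrowest in 427 members (47.1%), over 1.5 and up to 2 times in 231 (25.5%), over 2 and up to 4 times in 205 (22.6%) and over 4 times in 43 (4.75%). The share of members within 1.5 times was 73.3% at small RNA genes, 60% at tRNA genes, 52.9% at pseudogenes and other genes, 46.7% at microRNA genes, 43.0% at lncRNA genes and 45.0% with no non-coding gene. A median of 44.9% of the bp covered in any library was covered in all 3, and 92 members had no bp covered in all 3. The covered length was highest at 4 h in 365 members (40.3%), against 45.1% of the constant domains at gene ends and 42.3% of those inside genes, and 172 members had their lowest value at 4 h.

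Between 4 h and 0 h, the interval in which the ovulatory signal acts, most domains kept their breadth within 2-fold. At 4 h, 98 members (10.8%) were at least 2-fold broader than at 0 h, where the share over all 10822 domains with a peak at all times was 7.56%, and 45 (4.97%) were at least 2-fold narrower, where it was 3.14%. Among the 1414 constant domains inside genes 142 were broader and 70 narrower by this limit, and among the 8366 at gene ends 554 and 221 were. The median log2 ratio was 0.11 in the members and 0.11 over all such domains. In 43 of the 98 broader members the 0 h value was 1 peak of at most 182 bp, the lower quartile of peak widths at 0 h, and in 25 of the 45 narrower members the 4 h value was 1 peak of at most 187 bp, that of 4 h. The size of such a ratio depends on how narrow a peak could be called. Without peaks below the lower quartile of width the rule gave 639 members, of which 61 were broader and 14 narrower. The share over all domains was not computed for that setting. With domains chosen without the 12 h list there were 1125 members, of which 127 were broader and 74 narrower.

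The largest broadening at 4 h was at chr6:141876100-141878980, over the lncRNA genes Gm30784 and Gm30843 and 19815 bp from Slco1a4, an organic anion transporter gene. This domain was covered over 297 bp at 0 h, 2418 bp at 4 h and 1782 bp at 12 h, a log2 ratio of 3.03 for 4 h over 0 h. The lncRNA domain of Gm52208, 7340 bp from Cplane1, had 136, 1022 and 940 bp at 0 h, 4 h and 12 h. That of Gm38424, whose start it holds, had 136, 1001 and 537 bp. At chrX:33843778-33845220 the values were 177, 1066 and 1239 bp, and at chrX:15365207-15366493 they were 213, 1234 and 517 bp. Of these 5, all but the last and that of Gm38424 kept over 900 bp at 12 h, and Gm52208 and Gm38424 had 0 h values at the narrowest peak width of that library.

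The largest narrowing at 4 h was at chr14:120773417-120774574, over the lncRNA gene Gm41253 and 122265 bp from the importin gene Ipo5, with 955, 153 and 170 bp at 0 h, 4 h and 12 h (log2 ratio -2.64). The domain of the lncRNA gene Gm12066, 27428 bp from Bcl11a, a zinc-finger repressor gene, had 1126, 197 and 152 bp (log2 ratio -2.51). Both domains were also narrow at 12 h. At the tRNA domain chr13:21222344-21223471 near Trim27 the values were 659, 148 and 582 bp, at chr6:39781019-39781914 near Mrps33 they were 730, 139 and 689 bp, and at the lncRNA gene Gm52866 they were 921, 175 and 349 bp. The tRNA domain and that near Mrps33 were within 2-fold of their 0 h value at 12 h, while that of Gm52866 was still over 2-fold narrower than at 0 h.

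**Figure D5:**
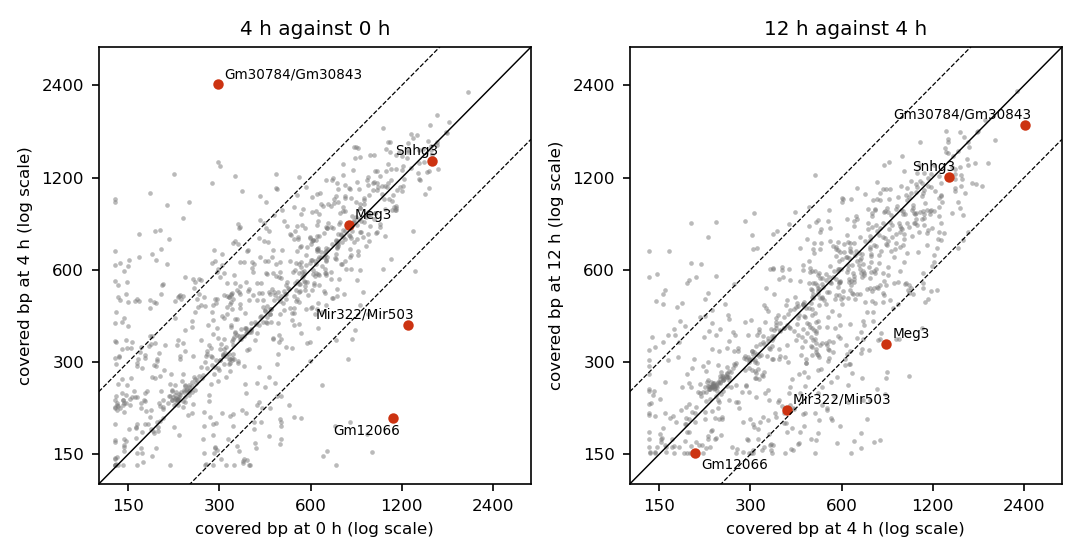
Covered bp of the 906 constant intergenic domains at 4 h against 0 h (left) and at 12 h against 4 h (right), both axes on a log scale, with a solid line at equality and dashed lines at 2-fold. Most points lie between the dashed lines, and the named domain of Gm30784 and Gm30843 has 297, 2418 and 1782 bp at 0 h, 4 h and 12 h.

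The later interval, between 4 h and 12 h, was compared in the same way. At 12 h, 45 members (4.97%) were at least 2-fold broader than at 4 h, beside 2.79% of all domains with a peak at all times, and 80 (8.83%) were at least 2-fold narrower, beside 6.53%. The median log2 ratio was -0.07 in the members and -0.12 over all such domains. Constant domains inside genes were broader by this limit in 3.25% and narrower in 9.90%, a larger share narrower than in the members. Those at gene ends were broader in 2.47% and narrower in 5.71%. In 39 of the 80 narrower members the 12 h value was 1 peak of at most 211 bp, the lower quartile of that library. Without peaks below these quartiles, 24 of the 639 members were broader and 42 narrower. With the extent from the first to the last covered bp in place of covered bp, 59 members were broader and 124 narrower. The largest narrowing was at the lncRNA gene Gm52599, 34419 bp from Mrps28, with 535, 805 and 167 bp at 0 h, 4 h and 12 h. A domain 10034 bp upstream of Larp1, a regulator of ribosomal protein mRNAs, had 598, 767 and 165 bp, and one 512788 bp from Tfec had 635, 697 and 157 bp. The domain near Mier3 had 514, 643 and 152 bp, and that of Gm31613 and Gm41477 had 163, 659 and 166 bp. The last of these had its high value at 4 h alone, while the other 4 had high values at 0 h too. In the other direction, a domain 23000 bp from the chaperone gene Pdia4 had 807, 191 and 850 bp, and one 45509 bp upstream of the cell-cycle kinase gene Cdk1 had 160, 139 and 568 bp.

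Over the whole interval the 12 h library was set against the 0 h library. At 12 h, 78 members (8.61%) were at least 2-fold broader than at 0 h, beside 6.19% of all domains with a peak at all times, and 56 (6.18%) were at least 2-fold narrower, beside 5.51%. The median log2 ratio was 0.08 in the members and 0.00 over all such domains. Constant domains inside genes were broader by this limit in 7.50% and narrower in 8.35%, a larger share narrower than in the members. Those at gene ends were broader in 5.63% and narrower in 4.98%. In 42 of the 78 broader members the 0 h value was 1 peak of at most 182 bp. Without the narrow peaks, 41 of the 639 members were broader and 27 narrower. By the first-to-last extent 103 members were broader and 87 narrower. Of the 5 largest broadenings, 3 were at the X-linked sites chrX:33843778-33845220, chrX:125103591-125106121 and chrX:32225534-32227629, the last 2 with 151, 646 and 1020 bp and with 148, 500 and 870 bp at 0 h, 4 h and 12 h. None of these 3 had an annotated non-coding gene within 1 kb. The others were the domains of Gm52208 and of Gm30784. At 0 h the 3 X-linked sites and Gm52208 had values below 182 bp. The size of their ratios thus depends on how narrow a peak could be called. The largest narrowings were those of Gm12066, of Mir322 and Mir503 and of Gm41253. They were followed by the lncRNA genes Gm13067, 38002 bp from Gpr157, with 863, 693 and 176 bp, and Gm15802, 29631 bp from Tex55, with 937, 744 and 226 bp. All of these but Gm15802 had 12 h values below 211 bp, the lower quartile of peak widths at 12 h, so the same limit holds for their ratios.

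A few members had nearly the same extent in all libraries. In 8 members over 95% of the covered bp were covered in all 3 libraries. The domain of Gm40237, whose start window is the tandem repeat shown above, was covered over 1562, 1567 and 1571 bp at 0 h, 4 h and 12 h (chr4:118547190-118548763). A domain at chr4:3089517-3091221 had 1683, 1685 and 1704 bp, and one at chr9:124256282-124257995 had 1694, 1683 and 1696 bp. Both lacked an annotated non-coding gene within 1 kb, and their nearest protein-coding genes were Vmn1r2, a vomeronasal receptor gene, and Gm39469. Groups in which each member lay within 20 kb of the next were found at chr9:3006306-3032721 (6 members) and chr17:3020068-3030080 (4 members), none of them at an annotated non-coding gene. The 6 members of the chromosome 9 group had 63.2% to 96.4% of their covered bp in all libraries, and that at chr9:3032359-3032721 had 353, 356 and 359 bp at 0 h, 4 h and 12 h. Besides these and the tRNA run, 2 groups of 3 members lay near Speer4c and near Pdia4. What reads stand behind peaks at such places was not tested.

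The members lay at a median of 24244.5 bp from the nearest protein-coding gene (quartiles 8368 and 62611 bp). There were 129 members over 1 and up to 5 kb away, 134 up to 10 kb, 369 up to 50 kb, 120 up to 100 kb and 154 farther (17.0%). The share with an annotated non-coding gene was 62.8%, 56.0%, 55.6%, 49.2% and 38.3% in these bins. The farthest member, at chr14:90911100-90911369, lay 2102330 bp from the protocadherin gene Pcdh9 and was covered over 233, 243 and 270 bp at 0 h, 4 h and 12 h. Another remote one, 1411178 bp from Cntnap5b, had 745, 848 and 953 bp, and one 1033553 bp from Gm40892, over the pseudogene Gm9726, had 804, 779 and 843 bp. For 712 members the strand and start of the nearest protein-coding gene were listed, and 349 lay on its 5′ side and 363 on its 3′ side. The start of that gene had a peak within 1 kb at all times for 401 of the 712 (56.3%), against 8245 of all 17274 protein-coding genes with a listed start (47.73%). The units differ, since a gene counts once for each member nearest to it in the former and once in the latter. By distance the share was 46.2% over 1 and up to 5 kb, 56.9% up to 10 kb, 61.0% up to 50 kb and 54.9% farther.

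Some genes of the ovulatory response had a member nearby. A constant intergenic domain lay within 100 kb of 2 of 32 LH-response genes (6.25%) as its nearest protein-coding gene, 4 of 29 immediate early genes (13.8%), 2 of 32 genes of follicular growth and granulosa identity (6.25%) and 0 of 31 genes of matrix, vessels and luteinization, against 683 of all 21631 protein-coding genes (3.16%). Near Nrip1, a nuclear receptor corepressor that mice need for ovulation, a domain 29.4 kb away on the 5′ side had 316, 336 and 407 bp at 0 h, 4 h and 12 h. Near Snap25, a membrane fusion gene, a domain 33.5 kb away had 756, 783 and 806 bp.

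Among immediate early genes the domain near Klf9 differed most between times. It lay 4.86 kb away on the 5′ side, at the lncRNA gene 2410080I02Rik, and had 227, 885 and 450 bp at 0 h, 4 h and 12 h. Fos, the AP-1 subunit gene, had a domain 8.96 kb away on the 3′ side with 1079, 1149 and 944 bp and one 17.9 kb away on the 5′ side with 285, 411 and 264 bp. Near Atf3, a stress-induced factor gene, a domain 41.1 kb away had 463, 628 and 739 bp. The domain near Myc is that of Pvt1. Near the follicular genes the values were low, with 206, 139 and 304 bp in a domain 51.2 kb from Foxo1, a forkhead factor of growing follicles, and 267, 185 and 274 bp in one 22.1 kb from the BMP receptor gene Bmpr1b. From a list of 53 non-coding RNA genes, 49 were found in the annotation and 16 lay within 1 kb of a member, all described above. No share over all 27923 non-coding genes is at hand as a reference for this count.

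The limits of the rule cut through a continuous range. The 5 widest members spanned 2600 to 2881 bp and had 217 to 2418 covered bp in single libraries, and the 5 narrowest domains beyond the span limit spanned 3036 to 3168 bp and had 584 to 2086. The 5 members nearest to a protein-coding gene lay 1012 to 1125 bp from it with 158 to 1306 covered bp, among them one near Elf2 with 183, 176 and 409 bp at 0 h, 4 h and 12 h. The 5 domains just within the distance limit lay 737 to 967 bp from a gene with 172 to 1076 covered bp, among them one near Psen2 with 289, 346 and 466 bp. The span limit left out 16 of 922 constant intergenic domains.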

How the data were processed

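The authors deposited 1 list of H3K4me3 peaks per library, with the start and end position of each peak in bp and its name, and no score, height or depth. Per the submitters' processing notes, mm10 was the build and the tools were MACS2 2.0.9, Bowtie2 2.2.3 and CASAVA 1.8. Neither the threshold for peaks nor the role of the input is given in the sources used here, and the depth is unknown. Per the file contents, peak names at 0 h and 4 h carry a nolambda tag and those at 12 h do not. Lane 5 is given for 12 h and lane 4 for 0 h and 4 h, per the labels.

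Domains were built with Python 3.11.15, pandas 2.3.3 and numpy 2.4.6, and the steps were tested on simulated data. Genes are those of RefSeq GRCm38.p6 (21631 protein-coding and 27923 non-coding on the chromosomes used). Strand, starts and 300-base windows were listed for a part of the genes, starts on chromosome 18 were not analysed here, and composition was taken from these windows in place of the merged domains, since no genome was used. Covered bp were compared as log2 ratios, with 2-fold as the limit. Intervals are 95% Clopper-Pearson intervals from scipy 1.17.1 and cover counting error only. Members, gene lists and rules were chosen with earlier results of these data known. Domains were named by a rule that took the 10 with the most covered bp in their narrowest library, the 5 largest differences in each direction between times, those at microRNA genes, the 15 broadest at other non-coding genes, the 10 farthest from a protein-coding gene, those nearest to listed genes and the 5 on either side of each limit. Other named genes come from the fixed non-coding list or were chosen after their values were seen. Alternatives changed the merging distance, peaks used, limits of the rule, fold, non-coding distance and neighbour rule. A domain that this rule takes is not reported here.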

Additional observations from a re-analysis of the deposited data

Results flagged for a closer look

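Peaks on chromosome Y, which the rule leaves out, were listed in the libraries of female mice, 28 at 0 h, 43 at 4 h and 25 at 12 h. Of these 8, 7 and 4 lay beyond 90 Mb on that chromosome. The mitochondrial genome had 5, 3 and 6 peaks at the same times.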

How the results depend on the processing

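Of 136 values recomputed under 14 settings, 111 stayed within 1.5 times for counts or within the 95% interval for medians, and 25 did not. With 1.5-fold in place of 2-fold, which can only raise the counts, 214 members (23.6%) were broader and 84 (9.27%) narrower at 4 h over 0 h. The counts were 93 (10.3%) and 190 (21.0%) at 12 h over 4 h, and 182 (20.1%) and 132 (14.6%) at 12 h over 0 h. Among the 1414 constant domains inside genes the shares were 22.2% and 11.3%, 8.56% and 22.6%, and 16.5% and 17.4% in the same order. Among the 8366 at gene ends they were 16.6% and 7.46%, 6.75% and 16.3%, and 12.8% and 13.1%. Without peaks below the 25th width percentile of each library there were 639 members in place of 906. Of these 639, 61 and 14, 24 and 42, and 41 and 27 passed the 2-fold limit in the same order. Their median covered lengths were 468, 538 and 501 bp at 0 h, 4 h and 12 h, and the listed genes near a member were 5 in place of 8. With extents from the first to the last covered bp, 59 members were broader and 124 narrower at 12 h over 4 h. At 12 h over 0 h, 103 were broader and 87 narrower. Beyond 5 kb from genes the median distance was 31200 bp. A pair of settings was chosen after the data were seen. Without the 12 h list there were 1125 members, of which 127 were broader and 74 narrower at 4 h over 0 h. There were 16 listed genes and medians of 351 and 418 bp at 0 h and 4 h. With some bp covered in all 3 libraries the medians were 444.5 and 467 bp at 0 h and 12 h. The cause of these shifts was not tested beyond the settings themselves. Over the settings run for each, member counts lay between 639 and 1125, members at a non-coding gene between 351 and 572, and the median CpG ratio between 0.611 and 0.719, with these ends set by leaving out narrow peaks or the 12 h list. No paired analysis was possible because there was 1 library per time. Depth is unknown, so whether a narrow or absent peak reflects low depth was not tested.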
